A study of Mus musculus with 18 samples.

Results

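The Hippo pathway genes and target genes of the co-activator YAP were followed in mouse intestinal organoids over 6 days of culture. The genes were Yap1, Wwtr1, Ctgf, Cyr61, Ankrd1, Ajuba, Amotl2, Lats2, Asap1 and Axl. They were found by their symbols in the deposited expression table, which gave 10 of the 24116 genes in it. All 10 were described in all 18 libraries. Of these, 7 reached 1 RPKM (a gene's read count divided by its length and by the size of the library) in at least 3 libraries and were tested, and Wwtr1, Ankrd1 and Axl did not.

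Intestinal organoids are epithelial structures grown in a gel from the stem and progenitor cells of the gut. The series has 3 libraries on each day from day 0 to day 5, made from 3 organoid lines of wild-type C57BL/6 mice aged 8 weeks, and RNA from 30 wells was pooled for each library. All days shared a medium with EGF, Noggin and R-spondin. From day 0 to day 3 the cultures also received 20% Wnt3a-conditioned medium and 10 µM Y-27632, an inhibitor of the kinase ROCK, and from day 0 to day 1 also 3 µM CHIR99021, an inhibitor of the kinase GSK3. From day 3 to day 5 the base medium was used alone, so the day of culture and these additions cannot be told apart. DNase was left out for replicate 1 of each day (6 libraries) and used for the other 12. The titles assign replicate 1 always to mouse 1 and replicate 3 always to mouse 3. They assign replicate 2 to mouse 2, except on days 1 and 2, where mouse 1 is named again. DNase, mouse 1 and replicate 1 therefore largely go together. The p-values below measure the spread between these libraries, 3 a day from at most 3 lines.

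In the Hippo pathway, the kinases MST1 and MST2 (Stk4 and Stk3) activate LATS1 and LATS2, which phosphorylate YAP and its relative TAZ and keep them out of the nucleus. When the pathway is less active, YAP and TAZ enter the nucleus and act with the TEAD factors on target genes, several of which encode inhibitors of YAP. In the intestine, YAP is known for its part in the repair of injured epithelium, and Hippo control of YAP acts mostly on the protein, so its mRNA level need not follow its activity. TAZ, the product of Wwtr1, shares most of this regulation.

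The libraries carried the RNA of epithelium. The summed level of 6 epithelial markers (Epcam, Cdh1, Vil1, Krt8, Krt18 and Cdx2) was 1297 to 4464 RPKM. It was 1408 to 2466 RPKM on day 0, 2946 to 4464 on day 1 and 1470 to 1792 on day 5. The higher sum of day 1 came mostly from Krt8 (mean 437 RPKM on day 0 and 1555 on day 1) and Krt18 (393 and 1218). Vil1 also rose (182 and 323). Epcam (442 and 434), Cdh1 (197 and 172) and Cdx2 (111 and 72.2) did not. Of 12 mesenchymal markers, 10 never reached 0.1 RPKM in any library, Dcn and Lum were listed at 0 in every library, and the sum of the 12 was 0.708 to 6.62 RPKM. Most of that sum came from Vim and Pdgfrb. The sum peaked on day 0, at 6.62, 1.74 and 4.24 RPKM in replicates 1 to 3. It was 1.15 to 1.58 on day 1 and 2.01 to 3.67 on day 5. The sums of 6 endothelial and 6 immune markers were at most 0.379 and 1.64 RPKM. The depth that the values imply was 43010000 to 53930000 reads per library. In pooled organoids, fewer cells of a type and less RNA per cell cannot be told apart.

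The promoters of 3 of the genes are shown because these genes, Ajuba, Cyr61 and Ankrd1, had different time courses while each window holds the letters that TEAD factors recognise. Each sequence is the 250 bases before the RefSeq transcription start (build GRCm38.p6), written 5′ to 3′ on the strand of the gene, with GGAATG or its reverse complement CATTCC in capitals. The Ajuba window is chr14:54577662-54577911, the Cyr61 window is chr3:145649986-145650235 and the Ankrd1 window is chr19:36119845-36120094, all on the minus strand.
Ajuba: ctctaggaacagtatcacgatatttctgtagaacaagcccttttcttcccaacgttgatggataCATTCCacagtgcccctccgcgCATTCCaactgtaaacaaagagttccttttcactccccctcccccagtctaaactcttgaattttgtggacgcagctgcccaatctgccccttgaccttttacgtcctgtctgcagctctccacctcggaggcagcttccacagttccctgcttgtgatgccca
Cyr61: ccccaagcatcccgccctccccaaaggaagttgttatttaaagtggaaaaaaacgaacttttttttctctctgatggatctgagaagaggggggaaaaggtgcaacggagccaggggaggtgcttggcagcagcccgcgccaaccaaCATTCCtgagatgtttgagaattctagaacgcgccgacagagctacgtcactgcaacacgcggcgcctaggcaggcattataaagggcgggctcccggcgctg
Ankrd1: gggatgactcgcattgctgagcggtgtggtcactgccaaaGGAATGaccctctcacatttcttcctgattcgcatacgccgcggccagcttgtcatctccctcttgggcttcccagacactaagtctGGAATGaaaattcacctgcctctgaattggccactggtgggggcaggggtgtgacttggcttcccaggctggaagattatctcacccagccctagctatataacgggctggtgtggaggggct

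The capitals start 186 and 164 bases before the start of Ajuba, 103 before that of Cyr61, and 210 and 123 before that of Ankrd1. The RefSeq table held 10 such windows for 8 of the genes, with a pair each for Wwtr1 and Lats2 and none for Ctgf and Asap1. On either strand, GGAATG was found in 8 of the 10 windows, the exceptions being both windows of Lats2. The same letters were in 4153 of all 32851 windows, or 12.6%. The AP-1 core TGANTCA was in none of the 10 windows and in 6.75% of all windows, and the CArG box bound by SRF was in none of the 10 and in 1.47% of all. The windows of Wwtr1 overlap and hold the same match, and a match of letters is no evidence that a factor binds there.

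Across the 6 days, the co-activators and the genes downstream of them followed different courses. Yap1 mRNA stayed within a narrow range, Ajuba, Ctgf, Asap1 and Lats2 rose between day 0 and day 1, Cyr61 was highest on day 0, and Ankrd1 was found mainly on day 5. In an F test over the days (limma on log2(RPKM + 1), Benjamini-Hochberg adjustment over all 11111 genes tested, call at an adjusted p under 0.05), 4 of the 7 tested genes changed, where 25.3% of all genes did. These were Ajuba with an adjusted p of 0.0122, Asap1 with 0.0147, Cyr61 with 0.0212 and Lats2 with 0.0244. Ctgf had an adjusted p of 0.0819, which became 0.0333 with the replicate number as a block, Amotl2 one of 0.292 and Yap1 one of 0.423. The calls of Cyr61 and Lats2 were lost among the 12 DNase-treated libraries alone, at adjusted p-values of 0.142 and 0.0775. Leaving out single libraries ended 3 of the 4 calls: that of Cyr61 without day 0 replicate 1 (0.0609) or 3 (0.0794), that of Asap1 without day 1 replicate 2 (0.0524), and that of Lats2 without day 0 replicate 2 (0.0948) or 3 (0.0816) or day 1 replicate 1 (0.0512) or 2 (0.0539).

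**Figure D1:**
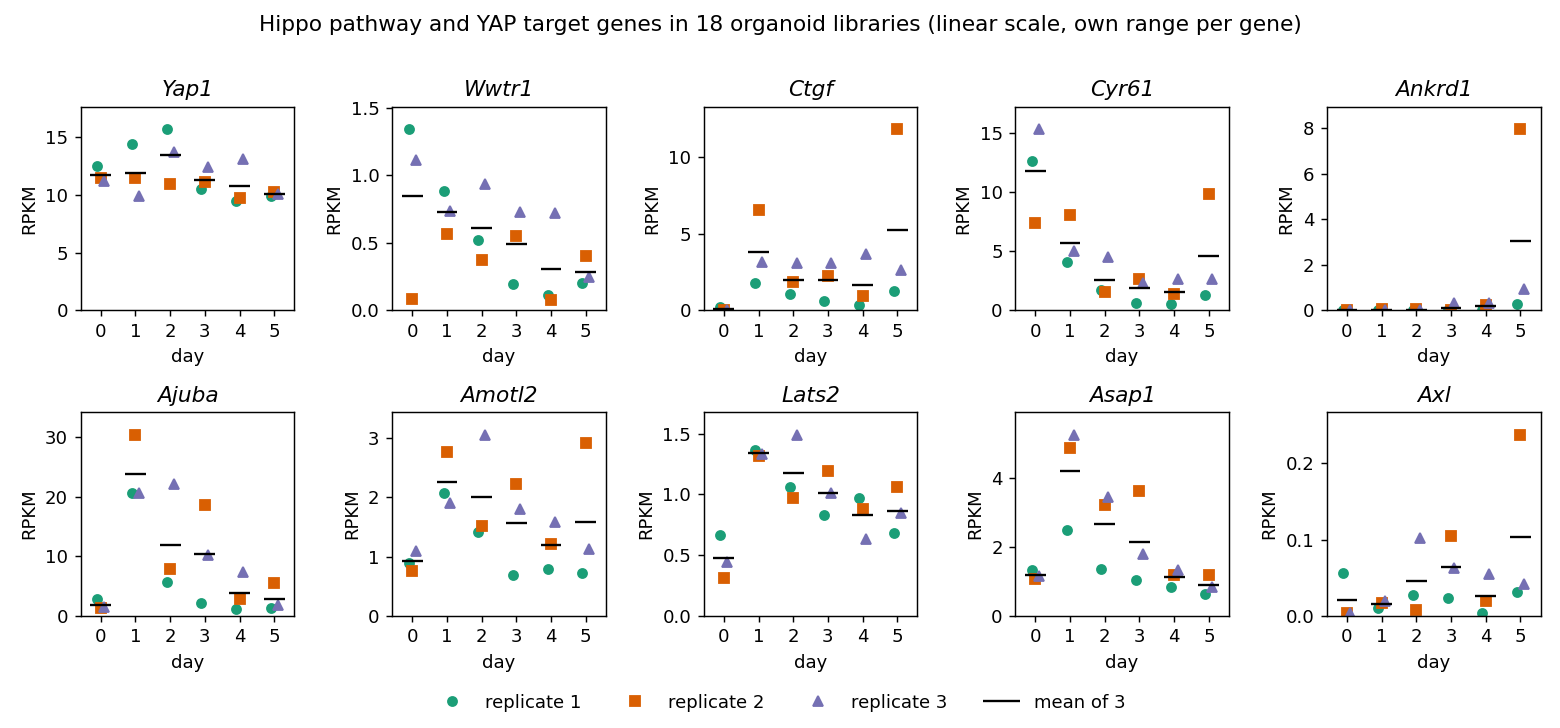
Level of each of the 10 genes in every library, in RPKM on a linear axis with its own range for each gene, against the day of culture. Symbols are replicates 1, 2 and 3 and the line is their mean. Ajuba peaks on day 1 with a mean of 23.9 RPKM, Cyr61 is highest on day 0 with a mean of 11.7, and replicate 2 of day 5 carries most of the Ankrd1 signal at 7.94.

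The co-activators come first. Yap1 (mm10, chr9:7931999-8004638) encodes YAP itself, and its lowest, median and highest levels over the 18 libraries were 9.52, 11.1 and 15.7 RPKM. Its highest level was thus 1.65 times its lowest. The mean was 11.7 ± 0.658 RPKM (SD, n = 3) on day 0, 11.9 ± 2.26 on day 1, 13.5 ± 2.37 on day 2, 11.3 ± 0.967 on day 3, 10.8 ± 2.03 on day 4 and 10.1 ± 0.218 on day 5. The libraries of neighbouring days overlapped. Between day 0 and day 1 its log2 change was 0.01 ± 0.16 (SE), with an adjusted p of 0.974 in limma, and between day 0 and day 5 it was -0.19 ± 0.16, with an adjusted p of 0.354. The 3 values of day 5, 9.90, 10.3 and 10.1 RPKM, all lay below the 3 of day 0, 12.5, 11.5 and 11.2. The share of all genes whose libraries separate in this way was not computed, here or for the genes below.

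Wwtr1 (chr3:57455644-57575910), the gene of TAZ, was far below Yap1 in RPKM in every library. Its 3 values were 1.34, 0.0823 and 1.11 RPKM on day 0, 0.880, 0.562 and 0.736 on day 1, and 0.200, 0.403 and 0.245 on day 5. Only 2 of 18 libraries reached 1 RPKM, so it was not tested with the others. Day 0 held both the highest values and, in replicate 2, one of the lowest, from 19 reads. The 3 values of day 5 all lay below those of day 1, but those of day 0 and day 5 overlapped. When no filter was applied, the log2 change from day 0 to day 5 was -0.45 with an adjusted p of 0.247 in limma.

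Among the regulators of the pathway, Lats2 and Amotl2 act against YAP and are themselves known targets of it. Lats2 (chr14:57689662-57746212), a kinase that phosphorylates YAP, measured 0.667, 0.310 and 0.441 RPKM on day 0 and 1.37, 1.32 and 1.33 on day 1. The groups did not overlap, and the 3 libraries of day 1 were nearly level, with an SD of 0.0255 around a mean of 1.34. It rose by 0.67 ± 0.14 on the log2 scale (adjusted p = 0.00407 in limma). The call held in all 28 alternative analyses. The means of the later days were 1.18 ± 0.278, 1.01 ± 0.179, 0.830 ± 0.177 and 0.863 ± 0.189 RPKM (SD, n = 3). All 3 libraries of day 5 were below those of day 1 and above those of day 0, but neither difference passed the test, with adjusted p-values of 0.0821 and 0.0822. The second of these passed when the libraries were rescaled by the median of ratios (0.0472) and without 3 libraries that earlier results showed to stand apart, namely replicate 1 of day 0, replicate 2 of day 3 and replicate 3 of day 4 (0.0405).

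Amotl2 (chr9:102717091-102733418), an angiomotin that holds YAP at cell junctions and in the cytoplasm, measured 0.893, 0.760 and 1.10 RPKM on day 0 and 2.08, 2.76 and 1.91 on day 1. These groups did not overlap either, and the mean of day 1 was 2.45 times that of day 0. The log2 change of 0.75 ± 0.30 had an adjusted p of 0.0902 in limma and did not pass. It passed with the replicate number as a block (0.0483), with the mouse as a factor (0.0219) and after quantile normalization (0.0355). It also passed with the spread taken from these days only (0.0168) and with library weights (0.0194). Those weights put 989.82 on day 4 replicate 2, which is outside this comparison, and 0.27 to 2.47 on the libraries of day 0. With weights so uneven, that last result is hard to rely on. By day 5 the values were 0.722, 2.92 and 1.13 RPKM and spanned both earlier groups.

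Ajuba (chr14:54567469-54577661) encodes a LIM protein that binds LATS kinases at cell junctions and limits their action on YAP. It measured 2.78, 1.35 and 1.54 RPKM on day 0 and 20.6, 30.4 and 20.7 on day 1. The lowest library of day 1 was thus well above the highest of day 0, and the mean of day 1 was 12.6 times that of day 0. The log2 change was 3.12 ± 0.63, with an adjusted p of 0.00361 in limma. On days 2 and 3 the libraries spread widely, at 5.68, 7.81 and 22.1 RPKM and at 2.24, 18.6 and 10.2 RPKM. On day 4 they were at 1.12, 2.79 and 7.36 and on day 5 at 1.37, 5.54 and 1.82. Between day 1 and day 5 Ajuba fell by 2.80 ± 0.63 on the log2 scale (adjusted p = 0.00754). Day 5 overlapped day 0, with a change of 0.32 ± 0.63 (adjusted p = 0.715). Both calls, the rise and the fall, held in all 29 alternatives.

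The secreted targets Ctgf and Cyr61 encode matricellular proteins of 1 family, CCN2 and CCN1, and are the most widely used readouts of YAP activity. Ctgf (chr10:24595442-24598683) was near its detection limit on day 0, at 0.230, 0.0259 and 0.0362 RPKM, which stand for 28, 3 and 4 reads. It then measured 1.80, 6.54 and 3.13 RPKM on day 1. The groups did not overlap, and Ctgf rose by 2.02 ± 0.59 on the log2 scale (adjusted p = 0.0259 in limma). The call was lost when day 0 replicate 2 (0.0750) or 3 (0.0769) was left out, and likewise for replicates 2 (0.110) and 3 (0.0655) of day 1. The pseudocount of 1 understates the change of such a low gene, and the ratio of the means was 39.2.

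On the following days Ctgf stayed above its day 0 level in every library, at means of 1.98 ± 1.03, 1.96 ± 1.27 and 1.63 ± 1.76 RPKM (SD, n = 3). On day 5 it measured 1.23, 11.8 and 2.64 RPKM. Replicate 2 was the highest of all 18 libraries. The change from day 0 to day 5 was 2.10 ± 0.59 on the log2 scale (adjusted p = 0.0202). It was 1.38 with an adjusted p of 0.0854 without that replicate, and the call was also lost without day 0 replicate 2 (0.0600) or 3 (0.0575). Between day 1 and day 5 it was 0.08 ± 0.59 (adjusted p = 0.921).

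Cyr61 (chr3:145646971-145649985) was measured at its highest on day 0, where Ctgf was lowest. Its values were 12.6, 7.37 and 15.3 RPKM on day 0, 4.04, 8.08 and 5.00 on day 1 and 1.74, 1.50 and 4.49 on day 2. On day 0, replicate 2 was lowest both for Cyr61 and for the summed mesenchymal markers (1.74 RPKM against 6.62 and 4.24). It was also lowest for 8 of the 10 genes followed here. That sum was mostly Vim (mean 3.19 RPKM on day 0) and Pdgfrb (0.923). Pdgfrb alone was lowest in replicate 3, at 0.277 RPKM against 2.14 and 0.351 in replicates 1 and 2. The part of other cells in the day 0 level of Cyr61 was not tested. Day 0 and day 1 overlapped at replicate 2, and the change of -0.92 ± 0.52 did not pass (adjusted p = 0.236 in limma). The means then were 1.85 ± 1.11 RPKM on day 3 and 1.52 ± 1.06 on day 4. On day 5 the 3 libraries measured 1.27, 9.81 and 2.63 RPKM, and replicate 2 alone lay within the range of day 0. The change from day 0 to day 5 was -1.46 ± 0.52, with an adjusted p of 0.0514. Without day 5 replicate 2 it was -2.10 with an adjusted p of 0.0132, and it also passed with the replicate block (0.0282), with the mouse as a factor (0.0305) and after quantile normalization (0.0464).

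Ankrd1 (chr19:36111965-36119844), a target that encodes an ankyrin repeat protein known from muscle, appeared late. It had no read in any library of day 0, and 0, 3 and 0 reads on day 1, 0, 5 and 1 on day 2, 1, 0 and 27 on day 3 and 1, 18 and 24 on day 4. A count of 0 on day 0 allows up to 3 reads per library, or 0.0336 to 0.0370 RPKM. On day 5 there were 25, 603 and 79 reads, or 0.271, 7.94 and 0.936 RPKM. The mean of day 5 was at least 86.5-fold higher than the mean of those limits, and the lowest library of day 5 at least 7.32-fold higher than the highest of them. No day before held a library at 1 RPKM, and 1 library did on day 5, so Ankrd1 was not among the genes tested. When no filter was applied, the change from day 0 to day 5 had an adjusted p of 0.0498 in limma. In the same fit it was 0.0538 from day 1 to day 5, 0.738 from day 4 to day 5 and 0.158 in the F test over all days. Most reads of day 5 were in replicate 2, and the unfiltered fit was not repeated with libraries left out.

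Asap1 (chr15:64086840-64382941) encodes a GTPase-activating protein for ARF proteins, with roles in membrane traffic and the cytoskeleton. It measured 1.32, 1.08 and 1.16 RPKM on day 0, 2.50, 4.86 and 5.25 on day 1 and 0.635, 1.19 and 0.849 on day 5. Day 1 overlapped neither day 0 nor day 5. Asap1 rose by 1.21 ± 0.30 on the log2 scale from day 0 to day 1 (adjusted p = 0.0108 in limma) and fell by 1.43 ± 0.30 from day 1 to day 5 (adjusted p = 0.00506). The fall held in all 28 alternatives, and the rise in all but the one without day 1 replicate 3 (0.0560). The means in between, 2.67 ± 1.14, 2.15 ± 1.33 and 1.12 ± 0.253 RPKM (SD, n = 3), were each lower than the one before.

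Axl (chr7:25756500-25788924), a receptor tyrosine kinase and a known target in other cell types, was barely present. Its highest value was 0.237 RPKM, from 57 reads in day 5 replicate 2. The other 17 libraries held 1 to 27 reads, and no fold change is given at that level.

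Read against all genes, the count of increases between day 0 and day 1 was 4 of the 7 tested members (Ajuba, Ctgf, Asap1 and Lats2), beside 9.54% of the 11111 genes. None fell, beside 9.05%, and none with an unadjusted p under 0.05 in limma either. Between day 1 and day 5, Ajuba and Asap1 fell, which is 2 of 7 beside 16.1%, and none rose, beside 11.8%, also at an unadjusted p under 0.05. Between day 0 and day 5, only Ctgf rose, which is 1 of 7 beside 11.4%, and none fell, beside 13.0%, though Cyr61 had an unadjusted p of 0.0127. The last 2 comparisons share samples with the first and are not independent of it. Ctgf and Lats2 were at most 0.230 and 0.667 RPKM on day 0, so they passed the filter only through later days. The members and the gene lists were also chosen with earlier results of these data known. These counts, and that of the F test, therefore describe the members and are no test of them as a set. The median log2 change of all genes was -0.15 from day 1 to day 5 and -0.17 from day 0 to day 5, and -0.01 and -0.04 after rescaling by the median of ratios, so small decreases over these spans, such as that of Yap1, sit near the median of all genes. Among the genes called, 42.3% rose from day 1 to day 5, against 56.9% after that rescaling, and 46.7% against 55.2% from day 0 to day 5.

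No member passed the test in any step between neighbouring days after day 1, at adjusted p-values of 0.759 to 1.00 in limma, and none had an unadjusted p under 0.05 (the lowest was 0.0839, for Cyr61 from day 1 to day 2). Few genes did at all. Day 2 against day 1 and day 3 against day 2 gave 0% of genes in either direction (263 and 48 genes had an unadjusted p under 0.05). Day 4 against day 3 gave 0.0360% higher and 0% lower (541 at an unadjusted p under 0.05). Day 5 against day 4 gave 0.189% higher and 0% lower (454 at an unadjusted p under 0.05). The day on which Ajuba and Asap1 fell is therefore not resolved.

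**Figure D2:**
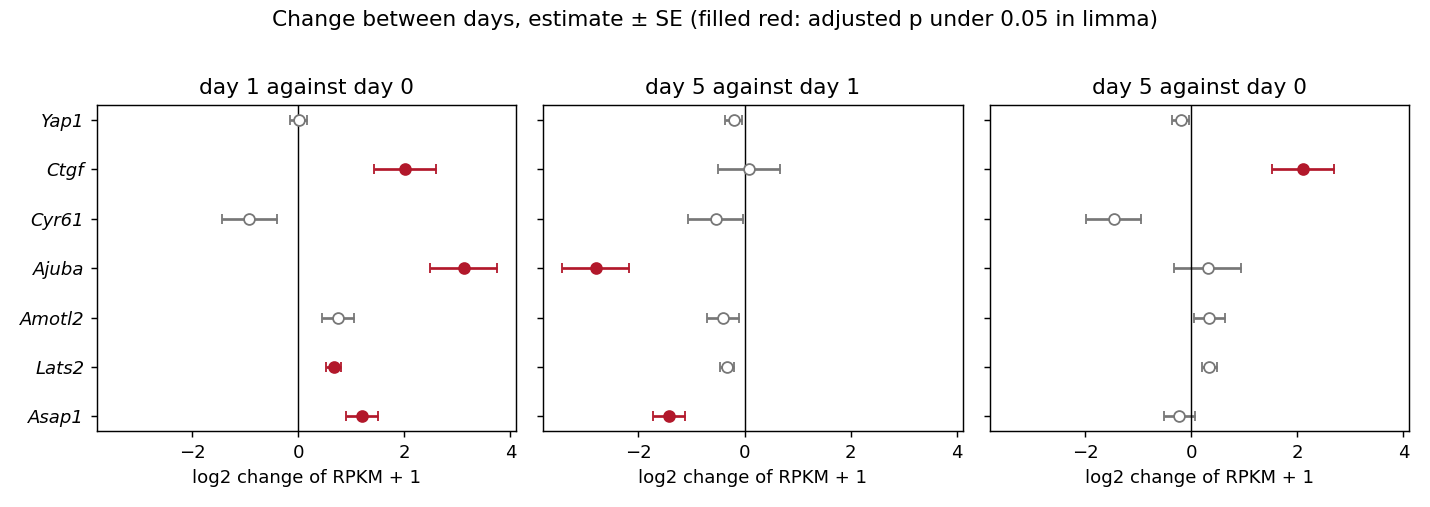
Log2 change of RPKM + 1 between days for the 7 tested genes, in the 3 panels day 1 against day 0, day 5 against day 1 and day 5 against day 0. Points are limma estimates, bars are ± 1 SE and filled red points passed an adjusted p of 0.05. Ajuba moves most, by 3.12 up to day 1 and by -2.80 after it, while Yap1 stays at 0.01 and -0.20.

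Libraries of the same day differed, and Ctgf, Cyr61, Ajuba and Amotl2 differed together. The deviation of each library from the mean of its day was taken on the log2(RPKM + 1) scale. Over the 18 libraries these deviations had a Pearson r of 0.96 between Cyr61 and Amotl2, 0.91 between Ctgf and Cyr61, 0.90 between Ajuba and Amotl2 and 0.83 between Ctgf and Ajuba. Other members followed these genes in part. The barely present Axl had an r of 0.87 with Cyr61 and with Amotl2, 0.81 with Ctgf and 0.78 with Ajuba. With the same genes, Asap1 had an r from 0.60 (Cyr61) to 0.75 (Ajuba), and Ankrd1 one from 0.44 (Ajuba) to 0.75 (Ctgf). Lower values included 0.30 between Ctgf and Lats2, 0.39 between Lats2 and Asap1, 0.34 between Ankrd1 and Lats2 and 0.23 between Ankrd1 and Asap1. Without removing the day, the r of Ctgf and Cyr61 was 0.12. For Yap1 the within-day r with the other members except Wwtr1 ran from -0.35 with Asap1 to 0.33 with Ajuba, and it was 0.50 with Wwtr1. These values are a description of 18 points that share library, mouse and DNase treatment, and they carry no test.

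The order of the libraries showed the same pattern. On days 3, 4 and 5, replicate 1 was the lowest of its day for all 5 of Ctgf, Cyr61, Ajuba, Amotl2 and Asap1. On day 0 it was replicate 2 that was lowest for all 5. The highest library was replicate 3 for all 5 genes on days 2 and 4, replicate 2 for 4 of 5 on days 1 and 3, and replicate 2 for all 5 on day 5. Replicate 1 is also the library without DNase and from mouse 1, and the part of these in the order cannot be told apart. The share of all genes with these orders was not computed, so the orders cannot be called particular to these genes. Within a day, the highest library of Ajuba was up to 8.32 times the lowest, on day 3.

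On day 5, replicate 2 was the highest and replicate 1 the lowest library for all 10 genes. Replicate 1 was likewise lowest that day for the tested genes of the pathway lists below, all but Mob1a, Mob1b, Tead2 and Vgll4. Its low place is thus not particular to the members. On the log2(RPKM + 1) scale, replicate 2 lay above the higher of the other libraries of that day by 2.21 for Ankrd1, 1.82 for Ctgf, 1.57 for Cyr61, 1.21 for Ajuba and 0.88 for Amotl2. The gap was 0.24 for Asap1, 0.15 for Lats2 and 0.02 for Yap1. Of all 11111 tested genes, 67 lay more than 1 above both other libraries, or 0.603%, and 3 of the 7 tested members were among them. Its summed mesenchymal markers were 3.67 RPKM, against 2.01 and 3.08 in the other libraries of that day and 1.15 to 1.58 on day 1. That sum was mostly Vim (mean 2.66 RPKM on day 5). Pdgfrb was lower in replicate 2, at 0.137 RPKM against 0.194 and 0.204. The part of other cells in this library was not tested.

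**Figure D3:**
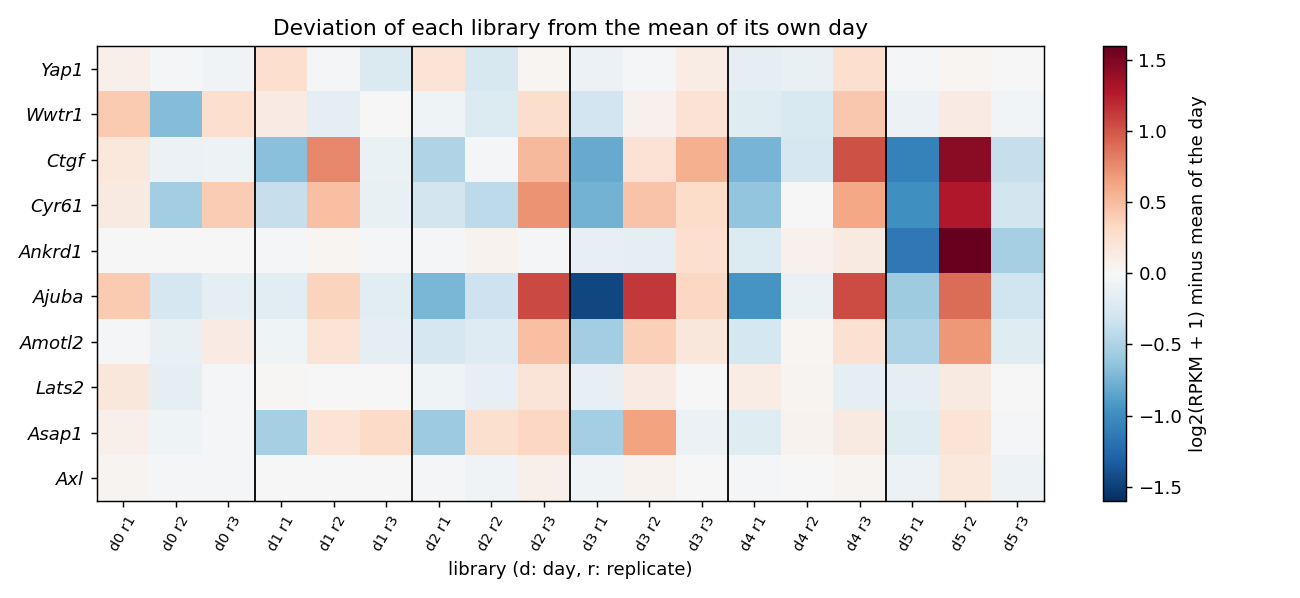
Deviation of each library (columns, day and replicate) from the mean of its own day for the 10 genes (rows), in log2(RPKM + 1). Red is above and blue below the mean of the day. Ctgf, Cyr61, Ajuba and Amotl2 are blue together in replicate 1 of days 3, 4 and 5 and red together in day 5 replicate 2, while the row of Yap1 stays pale.

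The rest of the pathway was described from 4 lists of genes. The kinase cassette of Hippo (10 genes, all tested) gave no call between day 0 and day 1 (0 of 10, and 0 at an unadjusted p under 0.05 in limma), with a median log2 change of -0.04, where the median of all genes was 0.00. From day 1 to day 5, 1 of 10 fell, beside 16.1% of all genes. It was the kinase Taok1, which acts upstream of MST. It went from 6.12 ± 1.14 to 3.61 ± 0.667 RPKM (SD, n = 3; log2 change -0.63, adjusted p = 0.0266 in limma). The call was lost without day 1 replicate 1 (0.113), without replicate 1 (0.103) or 2 (0.0593) of day 5, and among the DNase-treated libraries (0.119). From day 0 to day 5, 3 of 10 fell, beside 13.0% of all genes. Lats1, the relative of Lats2, went from 13.0 ± 0.771 to 8.87 ± 1.04 RPKM, a log2 change of -0.51 (adjusted p = 0.0141). Taok1 and Map4k4 changed by -0.66 and -0.56. The call of Lats1 was lost without day 5 replicate 1 (0.0723), and those of Taok1 and Map4k4 without any of several libraries, with adjusted p-values up to 0.106 and 0.144. All 3 were also lost among the DNase-treated libraries, at 0.0699 for Lats1, 0.147 for Taok1 and 0.185 for Map4k4. No gene of the cassette passed the F test (2 at an unadjusted p under 0.05). Stk3, Stk4 and Sav1, the MST kinases and their scaffold, had means of 4.19 to 5.73, 11.5 to 13.8 and 12.2 to 13.9 RPKM over the days.

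Of 12 upstream regulators, 7 were tested, and 3 of these rose between day 0 and day 1, beside 9.54% of all genes. None fell, beside 9.05%, and the median log2 change was 0.47. The difference from the kinase cassette was not tested. Wwc1 (KIBRA), a scaffold that promotes LATS activity, rose from 17.0 ± 3.41 to 51.5 ± 5.87 RPKM (SD, n = 3; log2 change 1.55, adjusted p = 0.000838 in limma). Its relative Wwc2 rose from 0.516 ± 0.683 to 3.46 ± 0.975 RPKM (1.62, adjusted p = 0.00913). Both calls held in all alternatives, and both genes passed the F test over the days, with adjusted p-values of 0.00394 for Wwc1 and 0.0146 for Wwc2. Rassf1, which binds the MST kinases, rose by 0.72 (adjusted p = 0.0396), and this call was lost without day 1 replicate 2 (0.180) and in 8 other alternatives. From day 1 to day 5, 2 of 7 fell, beside 16.1% of all genes. Wwc1 fell by 0.87 (adjusted p = 0.0214) and Wwc2 by 1.12 (adjusted p = 0.0426), at the edge of the threshold in several alternatives. Wwc1 was lost without day 1 replicate 2 (0.0757), day 5 replicate 1 (0.0955) or 3 (0.0513) and after median-of-ratios rescaling (0.0545), and Wwc2 without any library of days 1 or 5. Amot, the founding angiomotin, fell from 13.5 ± 1.12 RPKM on day 0 to 6.85 ± 0.673 on day 5 (log2 change -0.89, adjusted p = 0.0327), a call lost without any single library of either day. The call was also lost among the DNase-treated libraries (adjusted p = 0.0927 in limma). Amot was the only called decrease among the 7 over that span, beside 13.0% of all genes. Nf2, the membrane scaffold Merlin, had means of 15.8 to 19.5 RPKM and did not pass.

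The nuclear partners of YAP, the TEAD factors and their VGLL competitors, gave few calls among 5 tested of 7 listed. From day 0 to day 1, 1 of 5 fell, beside 9.05% of all genes, and from day 1 to day 5 also 1 of 5, beside 16.1%. Vgll4, a competitor of YAP for TEAD, fell from 16.0 ± 4.11 RPKM on day 0 to 8.43 ± 2.27 on day 1 (SD, n = 3; log2 change -0.85, adjusted p = 0.0410 in limma). It was lost without any of several libraries, up to an adjusted p of 0.166 without day 0 replicate 3. Tead1 went from 6.34 ± 1.83 on day 1 to 3.01 ± 0.687 on day 5 (-0.86, adjusted p = 0.0384), a call lost among the DNase-treated libraries (0.210), without replicate 1 or 2 of day 1 and without any library of day 5. Tead4 had means of 0.108 ± 0.157 RPKM on day 0, 1.67 ± 0.739 on day 1 and 1.99 ± 1.97 on day 3 and passed in neither comparison. The number of these partners called higher from day 0 to day 1 was 0, but it was 1 in 12 of 29 alternatives, among them the replicate block and the fit of the DNase-treated libraries. Tead3 had means of 5.47 to 8.19 RPKM over the days.

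Of 14 other published YAP targets, 6 were tested. From day 0 to day 1, F3, the gene of tissue factor, rose from 3.11 ± 3.01 to 20.0 ± 7.65 RPKM (SD, n = 3; log2 change 2.51, adjusted p = 0.0117 in limma), and Gadd45a, a gene of the stress response, fell from 34.5 ± 7.96 to 14.1 ± 5.20 (-1.26, adjusted p = 0.0110). F3 was lost without day 0 replicate 2 (0.0589) or 3 (0.0509) or day 1 replicate 2 (0.0507), and Gadd45a among the DNase-treated libraries (0.136). Each is 1 of 6, beside 9.54% of all genes higher and 9.05% lower, and 5 of the 6 had an unadjusted p under 0.05. The number called higher was 0 to 3 and differed from 1 in 15 of 29 alternatives. Gadd45a also passed the F test over the days (adjusted p = 0.0327). From day 0 to day 5, Gadd45a fell by 1.31 (adjusted p = 0.0106), a call lost among the DNase-treated libraries (0.0801). F3 rose by 1.79 over that span (adjusted p = 0.0481), a call lost in 16 of 29 alternatives, among them those without day 0 replicate 2 (0.165) and without day 5 replicate 2 (0.188). None of the 6 passed from day 1 to day 5 (0 at an unadjusted p under 0.05). On day 5, F3 stood at 13.5 ± 11.3 RPKM and was again highest in replicate 2, by 1.63 on the log2 scale, beside a gap of 0.85 for Myof. The median log2 change of the 6 from day 0 to day 1 was 0.26.

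**Figure D4:**
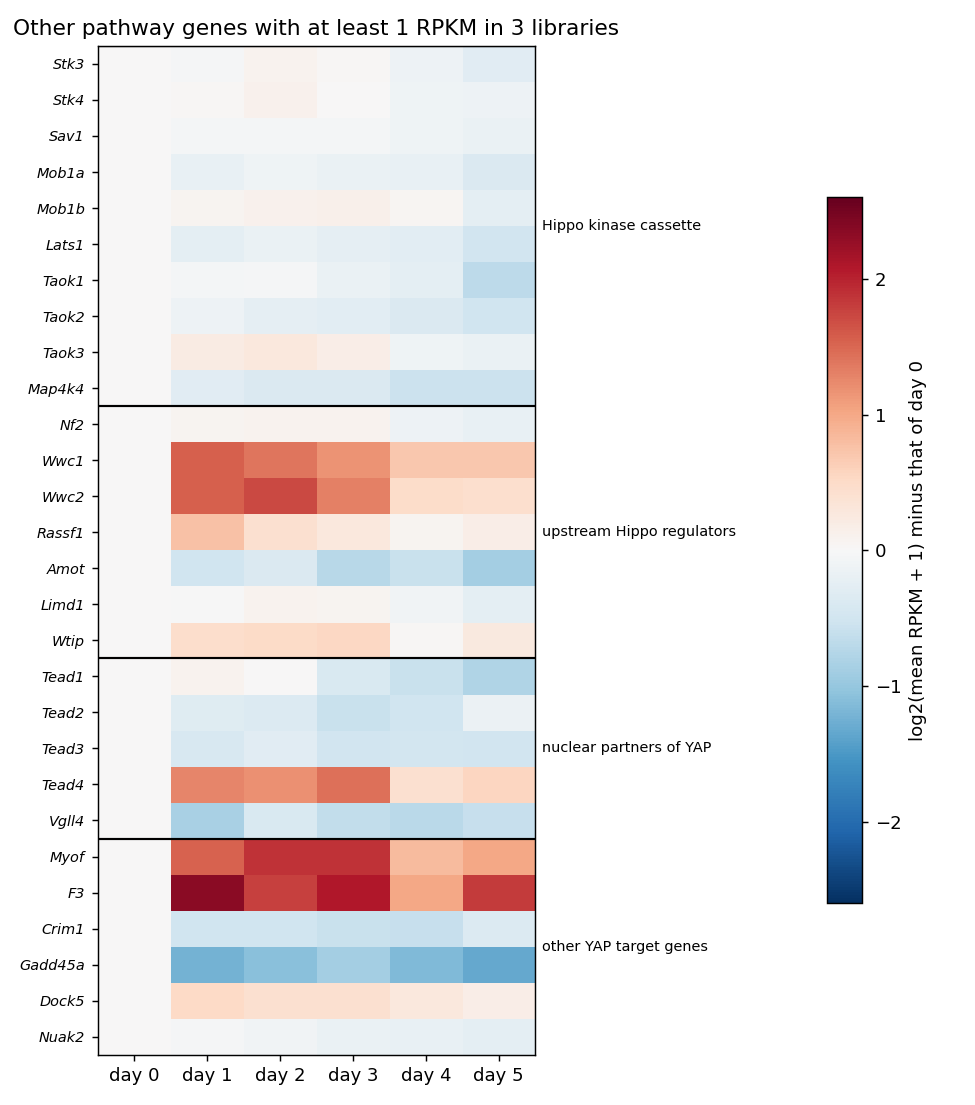
Change of the other tested pathway genes relative to day 0, as log2 of (mean RPKM + 1) minus that of day 0, for each day (columns) and gene (rows), grouped by list. Red is above and blue below day 0. Wwc1, Wwc2, Tead4, Myof and F3 are red on day 1 and paler on day 5, while most of the kinase cassette stays pale.

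For each tested member, the 3 genes with the most similar profile over the 18 libraries were taken among tested genes with a mean of at least 5 RPKM, by Pearson r on log2(RPKM + 1). Ajuba was most like Pmepa1 (r = 0.983), Tnfrsf12a (0.974), the TWEAK receptor, and Slc4a11 (0.966), a membrane transporter. These 3 also followed it within days, at r of 0.95, 0.95 and 0.97. Ctgf was most like Clu (0.914), which encodes clusterin, Anxa1 (0.836), an annexin, and F3 (0.834). The level of Clu ran from 0.0961 to 165 RPKM. Amotl2 was most like Phlda1 (0.879), Rundc1 (0.875) and Ajuba itself (0.865).

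The other 4 members had other neighbours. Cyr61 was most like Fam171a1 (0.891), the tubulin gene Tubb2b (0.886) and the pseudogene Tubb2a-ps2 (0.872), whose reads may be shared with its parent gene. Yap1 was most like Rprd1b (0.936), Ythdf2 (0.930) and Prps1l3 (0.930). Lats2 was most like Cdipt (0.936), Gngt2 (0.933) and Tnfaip1 (0.931), and Asap1 was most like Lrrc58 (0.955), Zfand2a (0.942) and Lrrfip1 (0.940). Members with a mean under 5 RPKM could not appear among these neighbours.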

How the data were processed

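The deposited table holds RPKM values per gene, made by the authors. Per the submitters' processing notes, bcl2fastq 2.17, STAR 2.5.2b, edgeR 3.20.5 and genome build mm10 were used, and per the labels' protocols the RNA kit was one for single cells and the library kit was TruSeq mRNA. The annotation, strand setting and handling of multiply matching reads were not given in the sources.

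Values were analysed as log2(RPKM + 1) with limma 3.58.1 in R 4.3.3 (lmFit, then eBayes with a trend). A single model held the 18 libraries, with day as the factor. The filter required 1 RPKM in 3 or more libraries and kept 11111 genes, two-sided p-values were adjusted over all of these, and calls were made at 0.05. The fit was tested on simulated data. RPKM is not a count, so no count model was used. Reads were recovered from the steps between low values: 288 of 3810 genes with a step gave the same depth, and the reads of every member were whole within 0.0102.

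Groups were taken from the sample titles. Replicate numbers were checked for pairing. Within-day deviations of libraries with the same number correlated at -0.64 to 0.81 (median 0.17, 45 pairs). Those with different numbers correlated at -0.79 to 0.67 (median -0.08, 90 pairs). Promoters and gene coordinates came from RefSeq (GRCm38.p6, that is mm10). Protein sequences were not analysed here.

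The members and gene lists were chosen with earlier results of these data known. All members are named, with up to 4 called genes of each pathway list by size of change for each comparison and the 3 genes most like each tested member. Genes of the lists named without a call, namely Stk3, Stk4, Sav1, Mob1a, Mob1b, Nf2, Tead2, Tead3, Tead4 and Myof, were chosen after their values were seen. Alternatives covered the pseudocount, the filter, 2 ways of scaling, library weights, the replicate block, the mouse, DNase treatment, the days in the fit and each library left out.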

Additional observations from a re-analysis of the deposited data

How the results depend on the processing

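No result changed direction after a call. The number of members called over all days was 4, and it was 2 with a filter at 5 RPKM, 2 among the 12 DNase-treated libraries, 7 with library weights and 2 to 5 when single libraries were left out. The filter at 5 RPKM removes low members from the test. It left 1 of the 4 increases from day 0 to day 1, 1 of the 2 decreases from day 1 to day 5 and 0 of the increases from day 0 to day 5. Leaving out single libraries gave 2 to 4 increases from day 0 to day 1. From day 0 to day 5 the count of increases was 1, and it was 2 with no filter, 2 after median-of-ratios rescaling, 2 without the 3 libraries that stood apart, 4 with library weights and 0 to 1 without single libraries. The count of decreases over that span was 0, and it was 1 after quantile normalization, 1 with the replicate block, 1 with the mouse as a factor and 0 to 1 without single libraries. Library weights also gave 4 decreases from day 3 to day 4 and 3 increases from day 4 to day 5. These weights put 989.82 on day 4 replicate 2 and at most 4.43 on any other library. Results of that alternative that involve day 4 thus rest on 1 library of that day, and its others on uneven weights. Whether same-numbered libraries pair was not settled. Their within-day deviations correlated at a median of 0.17 (-0.64 to 0.81), and those with different numbers at -0.08 (-0.79 to 0.67). By the titles, replicates 1 and 3 each came from 1 mouse on all days, and the main fit left this out. Under the replicate block, Cyr61 from day 0 to day 5 had an adjusted p of 0.0282 in limma against 0.0514 without it. Depth limits what can be said of Ankrd1, Axl and Ctgf on day 0, where a library held 0 to 28 reads of these genes. Changes of genes near or below 1 RPKM are damped by the pseudocount of 1.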
